A study of Mus musculus with 10 samples.

Results

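Pecam1, Cdh5 and Cd34, 3 genes best known from blood vessel endothelium, were followed in sorted hippocampal microglia of mouse pups. They were chosen by name, with earlier results of these data known, and they are 3 of the 545 endogenous genes on an nCounter mouse immune panel. This assay tags each target molecule, here cDNA after amplification, with a fluorescent barcode and counts the barcodes without sequencing. The cells came from male Balbc pups at postnatal day 14, 5 pups given brief daily separation (BDS) and 5 control pups, all from different litters. BDS pups were numbered 11, 17, 24, 38 and 59, and control pups 1, 18, 40, 52 and 69. For BDS the labels give a daily separation from the mother of 15 min over postnatal days 1 to 21, so pups of day 14 were still within that schedule. The same schedule is entered for the control samples, and how control pups were handled is not described here. The labels state a Percoll gradient followed by FACS, and the gate is not given in the sources used here.

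Endothelial cells line the vessels of the brain and, together with pericytes and astrocyte endfeet, form the blood-brain barrier. Pecam1 (CD31) is an immunoglobulin-family adhesion molecule that sits at endothelial cell borders, binds itself on the neighbouring cell and is also carried by platelets, monocytes and neutrophils. Cdh5 (VE-cadherin) is the cadherin of endothelial adherens junctions and the most restricted of the 3 to endothelium. Cd34 is a sialomucin of endothelium and of blood stem and progenitor cells. A microglial sort is meant to leave vessel cells behind, so RNA of these genes in such a sample can come from the sorted cells or from vessel cells, and in bulk lanes fewer cells of a type and less RNA per cell cannot be told apart.

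The 3 other listed endothelial markers on the panel were near background. Of 13 endothelial markers listed for this comparison, 6 were among the panel genes. The 3 others, Icam2, Vcam1 and Sele, adhesion molecules of resting or inflamed endothelium, exceeded the negative-control limit in 1, 0 and 0 of the 10 lanes. Raw counts of Icam2 ran from 12 to 24 in BDS lanes and from 6 to 18 in control lanes. The limit is the lane's mean plus 2 SD of 8 negative control probes, or 13.9 to 26.3 raw counts. By contrast Pecam1 and Cd34 exceeded it in 10 of 10 lanes and Cdh5 in 9 of 10. On a separate list of vascular adhesion genes, Icam1, Icam4 and Cd99 exceeded that limit in 10, 9 and 9 lanes. The pericyte gene Pdgfrb exceeded it in 9. Which cells these counts came from was not tested. The set is called by its gene names below and not read as a measure of vessel cells.

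Lanes differed in depth. Endogenous counts ran from 341679 to 968930 in BDS lanes and from 76237 to 802033 in control lanes, so BDS lanes were the deeper ones on average. Normalized counts are raw counts divided by a lane factor, the geometric mean of 6 housekeeping genes relative to its geometric mean over lanes. That factor ran from 0.827 in BDS 11 to 2.18 in BDS 17, and from 0.196 in control 52 to 1.84 in control 40. All 12 microglia markers listed, among them Csf1r, Cx3cr1 and Trem2, exceeded the limit in all 10 lanes. Their summed level was between 145664 and 176508 normalized counts in BDS pups, and between 140486 and 195805 in control pups. A sum is set by its highest genes and hides differences between them. At an unadjusted edgeR p under 0.05 (test given below), 3 of the 12 were higher and 2 lower in BDS lanes. The shares of all tested genes were 19.4% and 8.83%. Log2 fold changes ran both ways, with C1qa at 0.76 ± 0.20 and Cx3cr1 at -0.63 ± 0.23 (SE).

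The question put to the 3 genes was whether they differed between BDS and control pups, and whether they moved together as 1 set would. Their means did not all differ in 1 direction. Pecam1 and Cd34 had lower means in BDS lanes and Cdh5 a higher one. By edgeR's quasi-likelihood test, adjusted by Benjamini-Hochberg over the 283 tested genes, none of the 3 differences reached an adjusted p under 0.05. The ratio of Cdh5 to Pecam1 within a lane, which needs no scaling factor, was higher in 5 of 5 BDS lanes than in every control lane. The same held for 35 of the 282 other tested genes (12.4%) set against Pecam1, Cdh5 included.

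Pecam1 was measured at 508, 508, 552, 518 and 522 normalized counts in BDS pups 11, 17, 24, 38 and 59. In control pups 1, 18, 40, 52 and 69 it stood at 1173, 783, 805, 362 and 703. The 5 BDS lanes lay close together, 4 control lanes lay above all of them, and control 52, the shallowest lane of the study, lay below all of them. Means were 522 ± 18.2 in BDS pups and 765 ± 289 in control pups (SD, n = 5 each). The log2 fold change was -0.56 ± 0.24 (SE; edgeR unadjusted p = 0.0347, adjusted p = 0.156).

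The spread of Pecam1 differed in size between the groups. Its coefficient of variation was 3.49% over BDS lanes, the 4th lowest of the 283 tested genes, against 37.8% over control lanes. The median over tested genes was 19.9% in BDS lanes and 31.2% in control lanes. Without control 1, where Pecam1 was highest, its log2 fold change was -0.36, and without control 52 it was -0.73 (edgeR adjusted p = 0.331 and 0.0582).

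Cdh5 ran the other way. BDS pups 11, 17, 24, 38 and 59 had 71.4, 279, 161, 120 and 109 normalized counts, against 92.4, 54.0, 110, 35.7 and 73.3 in control pups 1, 18, 40, 52 and 69. Of the BDS lanes, 3 lay above every control lane, BDS 59 lay just under control 40, and BDS 11 lay among the control lanes. Means were 148 ± 80.1 in BDS pups and 73.2 ± 29.7 in control pups (SD, n = 5 each). The log2 fold change was 0.97 ± 0.37, or 1.96-fold (SE; edgeR unadjusted p = 0.0181, adjusted p = 0.128), and 7 of the 283 tested genes, Cdh5 included, had a value that high.

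Cdh5 was also the gene of the 3 nearest to background. Its raw counts were 59, 608, 279, 232 and 153 in BDS pups 11, 17, 24, 38 and 59, and 74, 60, 203, 7 and 27 in control pups 1, 18, 40, 52 and 69. The 7 counts of control 52 lay under that lane's negative-control mean of 11.1, so the normalized value of 35.7 there lies at background. BDS 17, the deepest lane, held the highest value, and without it the log2 fold change was 0.61 (edgeR adjusted p = 0.324).

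Cd34 stood at 491, 196, 321, 360 and 350 normalized counts in BDS pups 11, 17, 24, 38 and 59. The control pups 1, 18, 40, 52 and 69 had 409, 468, 578, 316 and 502. The groups overlapped: BDS 11 lay among the higher control lanes, control 52 lay within the BDS range, and BDS 17 lay below every other lane. Means were 344 ± 105 in BDS pups and 455 ± 98.7 in control pups (SD, n = 5 each). The log2 fold change was -0.42 ± 0.24 (SE; edgeR unadjusted p = 0.105, adjusted p = 0.258). BDS 17 thus held the lowest Cd34 and the highest Cdh5 of all 10 lanes, and BDS 11 held the highest Cd34 and the lowest Cdh5 of the BDS lanes.

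**Figure D1:**
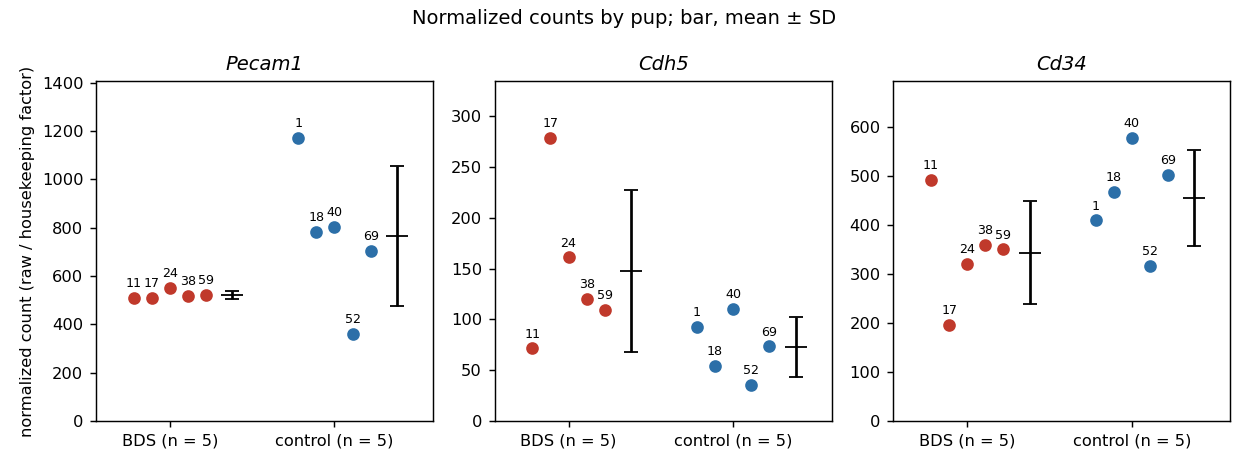
Normalized counts (vertical axes, from 0, a separate scale per gene) of Pecam1, Cdh5 and Cd34 in 5 BDS and 5 control pups; points are pups with their numbers, and bars give the mean ± SD. Pecam1 is tight in BDS lanes (508 to 552) and wide in control lanes (362 to 1173), Cdh5 is highest in BDS 17 (279), and Cd34 is lowest there (196).

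Unadjusted p-values of this size were common on the panel. An adjusted p under 0.05 was reached by 0 of 283 tested genes (0%, edgeR; smallest adjusted p = 0.0642), 80 genes (28.3%) having an unadjusted p under 0.05 and DESeq2 with the same scaling calling 26. The edgeR count of 0 depended on single lanes, being 48 without control 40 and 19 without BDS 11. Of the members 1 of 3, Cdh5, was higher at an unadjusted p under 0.05, as were 19.4% of tested genes. Likewise 1 of 3, Pecam1, was lower at that level, as were 8.83% of tested genes. In 0 of 3 members did the groups stay apart without overlap, as they did in 4.59% of tested genes. By edgeR p, Cdh5 ranked 40, Pecam1 61 and Cd34 115 of 283. The median log2 fold change of all tested genes was 0.09, so relative to it Pecam1 was at -0.65, Cdh5 at 0.88 and Cd34 at -0.50.

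**Figure D2:**
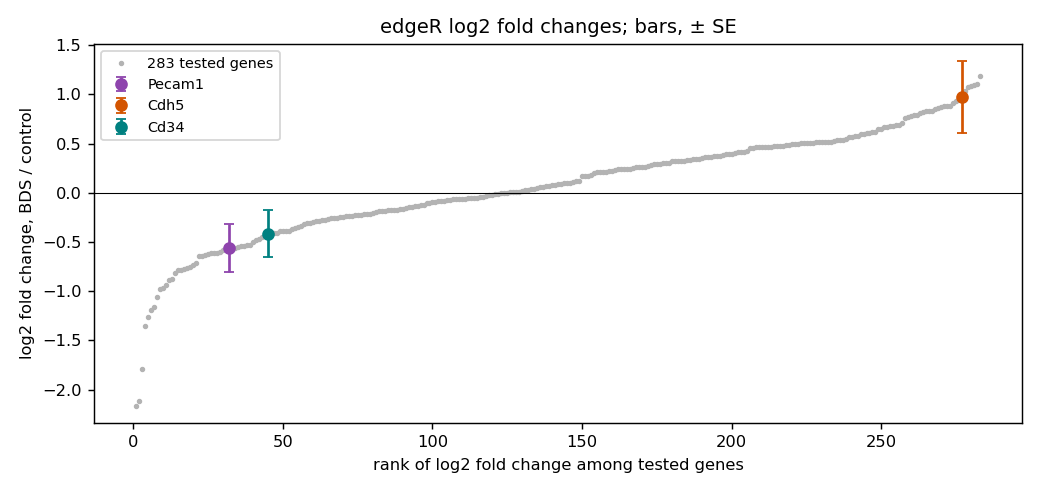
edgeR log2 fold changes of BDS over control (vertical axis) of the 283 tested genes in rank order (horizontal axis), with Pecam1, Cdh5 and Cd34 marked and their SE as bars. Cdh5 (0.97) lies near the top end, with Pecam1 (-0.56) and Cd34 (-0.42) in the lower part of the range.

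In the authors' deposited table, which holds the authors' own scaling, Pecam1 had group means of 692 in BDS and 1141 in control, a fold change of 0.61 and an unadjusted p-value of 0.0405. The authors' deposited table gives Cd34 means of 458 and 679 in BDS and control, a fold change of 0.67 and an unadjusted p-value of 0.0290. For Cdh5 the authors' deposited table lists 195 in BDS and 108 in control, a fold change of 1.80 and an unadjusted p-value of 0.1137. All 3 genes are listed there as above background in 100% of samples, where the lane limits used here leave Cdh5 below the limit in control 52.

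Whether the genes changed unequally was then tested on ratios within a lane, in which any scaling factor cancels. The level of such a ratio also depends on how well each probe binds, so only the difference between groups is read. Per 100 raw counts of Pecam1 there were 14.0, 55.0, 29.2, 23.2 and 20.8 of Cdh5 in BDS pups 11, 17, 24, 38 and 59. In control pups 1, 18, 40, 52 and 69 there were 7.88, 6.90, 13.7, 9.86 and 10.4. The groups did not overlap, though BDS 11 and control 40 nearly touched. Mean log2 ratios were -1.97 ± 0.73 in BDS pups and -3.40 ± 0.38 in control pups (SD, n = 5 each), a difference of 1.43 ± 0.37 (SE), or 2.69-fold. The exact two-sided permutation p was 0.00794, the smallest that 5 lanes against 5 allow, and 0.0238 adjusted over the 3 ratios. That adjustment does not cover the choice of the genes, which was made with earlier results of these data known.

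That separation was shared by other genes on the Pecam1 side. Of the 282 other tested genes, 35 (12.4%) had a ratio to Pecam1 that was higher in every BDS lane than in every control lane, and Cdh5 is 1 of them. Set against Cdh5 in the same way, 5 of 282 genes (1.77%), Pecam1 included, had a ratio lower in every BDS lane. With the lane's negative-control mean subtracted from both counts the difference was 2.03, more than 1.5 times the fold above, the 7 counts of control 52 being floored at 1 there (exact permutation adjusted p = 0.0357).

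Cdh5 was also higher relative to Cd34, less firmly. Per 100 raw counts of Cd34 there were 14.5, 142, 50.2, 33.4 and 31.0 of Cdh5 in BDS pups 11, 17, 24, 38 and 59, against 22.6, 11.5, 19.1, 11.3 and 14.6 in control pups 1, 18, 40, 52 and 69. In 4 of 5 BDS lanes the ratio exceeded every control lane, and BDS 11 lay among the control lanes. The log2 difference was 1.41 ± 0.57 (SE, n = 5 each; exact two-sided permutation p = 0.0317, adjusted p = 0.0476). It lost the adjusted call when any pup but BDS 11 was left out (log2 difference 0.95 without BDS 17, the lowest; adjusted p up to 0.107), and was 2.00 after background subtraction.

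Cd34 relative to Pecam1 showed no such separation. Per 100 raw counts of Pecam1 there were 96.7, 38.6, 58.2, 69.4 and 67.0 of Cd34 in BDS pups 11, 17, 24, 38 and 59, and 34.8, 59.8, 71.8, 87.3 and 71.4 in control pups 1, 18, 40, 52 and 69. The groups covered nearly the same range. The log2 difference was 0.02 ± 0.31 (SE, n = 5 each; exact two-sided permutation p = 0.913, adjusted p = 0.913), an error wide enough to hold differences in either direction.

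**Figure D3:**
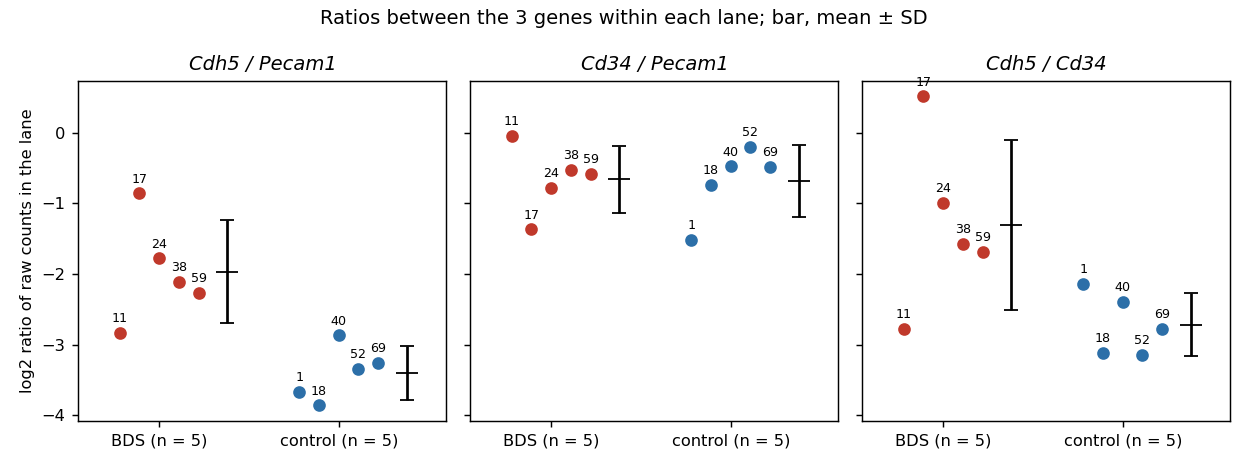
Log2 ratio of raw counts within a lane (vertical axis) for Cdh5 over Pecam1, Cd34 over Pecam1 and Cdh5 over Cd34 in 5 BDS and 5 control pups; points are pups with their numbers, and bars give the mean ± SD. For Cdh5 over Pecam1 all BDS lanes (-2.83 to -0.86) lie above all control lanes (-3.86 to -2.87), while for Cd34 over Pecam1 the groups overlap.

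Lane depth moved with Cdh5 over all lanes. Over the 10 lanes the log2 normalized count of Cdh5 had a Pearson r of 0.80 with the log2 housekeeping mean of the lane (permutation p = 0.00414, adjusted over 6 relations 0.0248). Spearman's rho was 0.85 (permutation p = 0.00297, adjusted p = 0.0178). Without the 2 lanes farthest from the median depth, control 52 and control 69, r was 0.74. For Pecam1 r was 0.18 and rho -0.07 (permutation p = 0.602 and 0.865, adjusted p = 0.723 and 1.00), and for Cd34 r was -0.20 and rho -0.21 (permutation p = 0.570 and 0.561, adjusted p = 0.723 and 0.841). Without those 2 lanes r was -0.48 for Pecam1 and -0.50 for Cd34. Each group alone has 5 lanes, too few for a correlation. With each group's mean taken out of both measures, as a description over the 10 lanes, r with depth was 0.67 for Pecam1, 0.70 for Cdh5 and 0.13 for Cd34. With group means taken out, then, Pecam1 as well as Cdh5 ran with depth, and the lowest value of both was in control 52. Over the BDS lanes alone Pecam1 was flat, at log2 levels of 8.99 to 9.11.

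With depth as a covariate in edgeR the log2 fold change of Cdh5 was 0.40 ± 0.38, that of Pecam1 -0.85 ± 0.24 and that of Cd34 -0.45 ± 0.27 (SE; edgeR adjusted p = 0.564, 0.369 and 0.372). Unadjusted edgeR p-values were 0.305, 0.00389 and 0.111 in that order, and 36 of the 283 tested genes were under 0.05 in that fit. The ratio of Cdh5 to Pecam1, fitted with depth after its values were seen, differed by 1.19 ± 0.45 (SE, n = 5 each) on the log2 scale. Its own relation to depth had an r of 0.62 and a rho of 0.73 (permutation p = 0.0554 and 0.0204, adjusted over the 3 ratios 0.0831 and 0.0306), and r was 0.76 without control 52 and control 69.

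Lanes of like depth can be set side by side. BDS 11 (lane factor 0.827) had 508 normalized counts of Pecam1 and 71.4 of Cdh5, against 1173 and 92.4 in control 1 (lane factor 0.800). In these shallower lanes both genes were lower in the BDS pup. Among deep lanes, BDS 24 and BDS 38 (lane factors 1.73 and 1.93) had 552 and 518 of Pecam1 and 161 and 120 of Cdh5, against 805 and 110 in control 40 (lane factor 1.84). There Pecam1 was lower and Cdh5 higher in both BDS pups. Between these depths, BDS 59 (lane factor 1.41) had 522 of Pecam1 and 109 of Cdh5, against 783 and 54.0 in control 18 (lane factor 1.11), which was somewhat shallower. These are single lanes and carry no test.

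**Figure D4:**
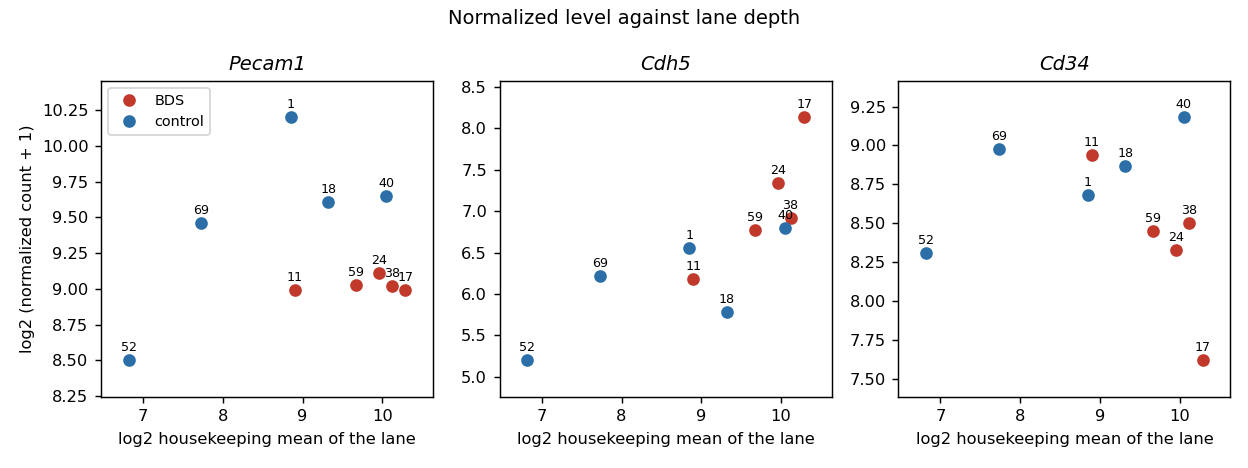
Log2 (normalized count + 1) of each gene (vertical axes) against the log2 housekeeping mean of the lane (horizontal axes), for 5 BDS and 5 control pups with their numbers. Cdh5 climbs with depth across both groups (r = 0.80), while Pecam1 in BDS lanes is flat between 8.99 and 9.11.

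Profiles over all 10 lanes were then compared between the 3 genes. Cdh5 and Pecam1 had a Pearson r of 0.06 and a rho of 0.01 over the 10 lanes (permutation p = 0.881 and 1.00, adjusted p = 0.881 and 1.00). Cdh5 and Cd34 had an r of -0.53 and a rho of -0.31 (permutation p = 0.116 and 0.387, adjusted p = 0.287 and 0.774). Cd34 and Pecam1 had an r of 0.50 and a rho of 0.64 (permutation p = 0.143 and 0.0540, adjusted p = 0.287 and 0.162). Without the 2 lanes farthest from the median of the first gene, r was -0.28, -0.61 and 0.49 in that order of pairs. None of these relations passed the adjustment, and all share the lane factors. With each group's mean taken out of both genes, r was 0.54 for Cdh5 and Pecam1, -0.32 for Cdh5 and Cd34 and 0.33 for Cd34 and Pecam1. The value near 0 for Cdh5 and Pecam1 thus held over all lanes, where their group differences have opposite signs, and not with group means taken out. Pecam1 hardly varied over BDS lanes (508 to 552). Control 52, where Cdh5 lay at background, was the lowest lane for both genes.

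Likeness was measured as the root-mean-square difference between centred log2 profiles over the 10 lanes, where smaller means more alike. The profile nearest to Pecam1 was that of Npc1, a lysosomal cholesterol transporter, at 0.17, followed by the interferon receptor chain Ifnar2 at 0.21 and Itgam, the CD11b integrin chain used to mark microglia, at 0.23. The median over tested genes was 0.67, and Cdh5, at 0.88, was the 224th nearest to Pecam1 among 282 genes. Seen from Cdh5, whose own median difference was 0.81, Pecam1 ranked 169. The measure is not scaled for spread, so a gene that varies much lies far from most others. Nearest to Cdh5 were the growth factor gene Csf1 (0.33), the cytokine receptor kinase Jak3 (0.34) and Cd160 (0.36). Nearest to Cd34 were Ifngr1, a chain of the interferon-gamma receptor (0.25), the MHC class II gene H2-Ob (0.28) and the TNF-family ligand Tnfsf12 (0.28). Pecam1 ranked 30 for Cd34, and Cdh5 ranked 267.

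Other genes of vascular adhesion were few on this panel. Of 22 listed, 8 were on the panel and 3 were tested, with 0 passing the adjusted threshold, 0 higher and 1 lower at an unadjusted edgeR p under 0.05 (19.4% and 8.83% of all tested genes). Icam1, a ligand of leukocyte beta-2 integrins, averaged 1315 ± 290 in BDS pups and 1412 ± 421 normalized counts in control pups (SD, n = 5 each), with -0.11 ± 0.23 on the log2 scale (SE). Icam4, an adhesion molecule known from human red cells, averaged 37.8 ± 8.96 and 60.5 ± 16.0 in BDS and control lanes, with -0.65 ± 0.28 (edgeR unadjusted p = 0.0377, adjusted p = 0.156). Cd99, a further protein of leukocyte passage through endothelium, was at -0.56 ± 0.35. The list's median was -0.56, against 0.09 for all tested genes, and 2 of its 3 genes, Icam4 and Cd99, had raw counts of only 15 to 82.

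Leukocyte partners of these molecules had 11 of 16 genes on the panel and 6 tested. At an unadjusted edgeR p under 0.05, 2 were higher and 1 was lower (19.4% and 8.83% of all tested genes), with 0 passing the adjusted threshold. The fibronectin receptor chains Itgb1 and Itga5 were at 0.65 ± 0.19 and 0.54 ± 0.22 (log2 fold change ± SE; edgeR adjusted p = 0.0706 and 0.149). Itgam was at -0.56 ± 0.18 (edgeR adjusted p = 0.0964), and Itga6, a laminin receptor chain, was at 0.25 ± 0.23. The median of the 6 was 0.32.

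The cytoplasmic tail of Pecam1 carries inhibitory motifs that Src-family kinases phosphorylate and that recruit phosphatases. Of 10 genes listed for this step 3 were on the panel, all tested. Fyn was at 0.96 ± 0.25, Src at -0.61 ± 0.22 and the phosphatase Ptpn6 at -0.23 ± 0.17 (log2 fold change ± SE; edgeR adjusted p = 0.0642, 0.126 and 0.377), a median of -0.23. Fyn thus had a higher mean and Src a lower mean in BDS lanes, each at an unadjusted p under 0.05, as were 19.4% (higher) and 8.83% (lower) of all tested genes. Among blood progenitor genes, 3 of the 5 on the panel were tested. Ikzf1 was at 0.48 ± 0.18 (edgeR unadjusted p = 0.0171, adjusted p = 0.126), Runx1 at -0.05 ± 0.27 and Tal1, a transcription factor of blood and endothelial lineages, at -0.19 ± 0.17, a median of -0.05. Kit, the stem cell factor receptor found on Cd34-positive progenitors, exceeded the limit in 0 lanes.

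Markers of other cells that carry Pecam1 or adjoin vessels were mostly near background. The exceptions were Pdgfrb, Csf3r and Cd79b, above the limit in 9, 10 and 10 of 10 lanes. The pericyte gene Pdgfrb, the 1 of 5 pericyte markers on the panel, averaged 154 ± 22.9 in BDS pups and 131 ± 57.5 normalized counts in control pups (SD, n = 5 each), with 0.21 ± 0.27 on the log2 scale (SE). Of 5 neutrophil markers on the panel 1 was tested, Csf3r, at -0.77 ± 0.24 (SE; edgeR adjusted p = 0.0890), and S100a8, S100a9, Camp and Cxcr2 exceeded the limit in 1, 1, 0 and 3 lanes. Cxcr2 averaged 19.5 in BDS pups and 14.4 normalized counts in control pups. The means of S100a8 (10.4 and 27.2), S100a9 (3.42 and 25.2) and Camp (3.30 and 10.7) were lower in BDS pups. All of these values lie near background. The summed neutrophil markers, nearly all Csf3r, ran from 1067 to 1744 in BDS lanes and from 1525 to 3453 in control lanes. Platelet markers had 1 of 3 tested, Itga2b, with a summed level of 27.7 to 42.3 in BDS lanes and 22.5 to 66.3 in control lanes. The perivascular macrophage marker Cd163 and the 5 T cell markers were not tested, since none exceeded the limit in more than 2 lanes. Of the 5 B cell markers only Cd79b was tested (-0.14 ± 0.22). What part any of these cells had in the values of the 3 genes was not tested.

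**Figure D5:**
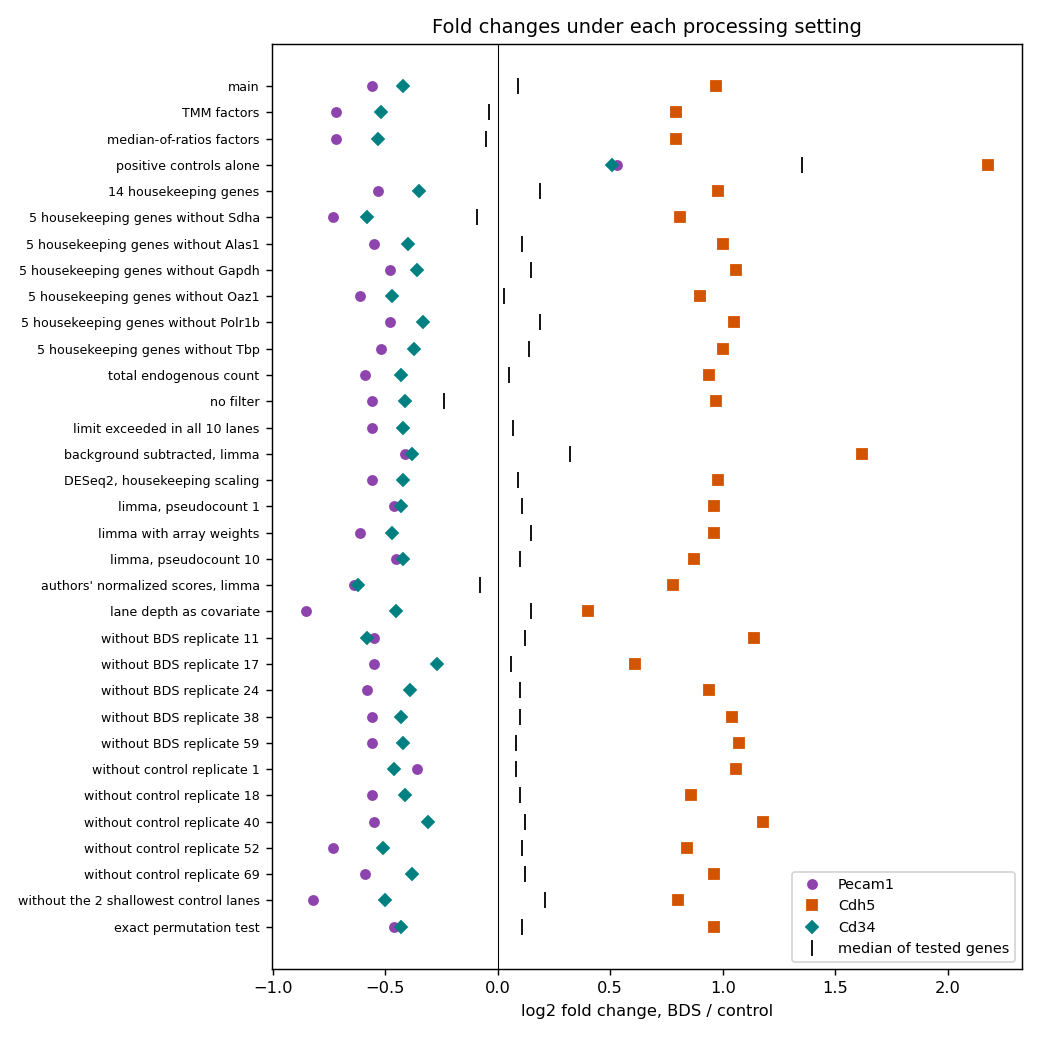
Log2 fold changes of BDS over control (horizontal axis) for Pecam1, Cdh5 and Cd34 under each processing setting (rows, the reported fit on top); vertical ticks give the median of the tested genes. Cdh5 lies to the right of 0 in every row shown (no value where the limit had to be exceeded in all 10 lanes), and Pecam1 and Cd34 lie to the left except with positive controls alone, where the median itself is at 1.35.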

How the data were processed

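Both deposited tables were used. The authors deposited raw counts of barcodes per probe for 545 endogenous genes, 14 housekeeping genes, 8 negative and 6 positive control probes in 10 lanes; counting software is not given in the sources used here. Per the labels' protocols, 2 ng of RNA was reverse transcribed and amplified by 5 rounds of PCR, and the counts carry no molecular identifiers. The other table, also deposited by the authors, holds scaled counts in whole numbers, treated as a score, besides group means, a fold change (ratio of means), a p-value and the percent of samples above background, per the file headers. Its scaling, per the series' design text, used positive controls and 5 housekeeping genes, while 6 are named.

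Here each lane's factor came from 6 housekeeping genes (Tbp, Sdha, Polr1b, Oaz1, Gapdh and Alas1; geometric mean). Genes above the lane limit in at least 4 of 10 lanes were tested (283) in R 4.3.3 with the two-sided quasi-likelihood test of edgeR 4.0.16 and no covariate; SE was derived from log2 fold change and F. Limma 3.58.1 and DESeq2 1.42.0 were alternatives. Log2 profiles used a pseudocount of 1. Ratios used exact permutation tests over all assignments of lanes, correlations 100000 resamples. Named genes were the 3 members, the 3 nearest profiles of each, and from each list the highest expressed tested genes and those with an unadjusted p under 0.05; Cd99, Runx1, Tal1, Icam2, Vcam1, Sele, Kit and the cell type markers were named to account for their lists. Members, lists and alternatives were chosen with earlier results of these data known. The edgeR fit was also tested on simulated data. A listed gene is not reported here. No sequence is printed, since no value here bears on one.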

Additional observations from a re-analysis of the deposited data

Results flagged for a closer look

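The ratio of Cdh5 to Cd34 raw counts in BDS 17 was 1.42, far from the next BDS lane (BDS 24, 0.502), the gap being 0.721 of the range of the 5 BDS lanes above Dixon's critical value for 5 values. It was the only one of 12 groups of values examined (3 genes and 3 ratios in BDS and control lanes) that stood out in this way, and chance marks about 1 group in 20. These values were not log2 transformed, so the flag holds for that scale only. As log2 ratios, not examined in this way, BDS 17 was at 0.51, BDS 24 at -0.99 and BDS 11, the lowest BDS lane, at -2.78. BDS 17 was the deepest lane, with 968930 endogenous counts. Without it the log2 difference of that ratio was 0.95 (exact permutation adjusted p = 0.0833).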

How the results depend on the processing

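Pecam1 and Cd34 were lower and Cdh5 higher in BDS lanes under every alternative run but 1. With positive controls alone, Pecam1 was at 0.53 and Cd34 at 0.51, where the median of tested genes was 1.35, so relative to it they were at -0.82 and -0.84. Limma with array weights put 2 genes past the threshold, Pecam1 at -0.61 and Cdh5 at 0.96 (limma adjusted p = 0.0219 and 0.0261), and 85 genes in all. Adjusted p over the alternatives ran from 0.0219 to 0.504 for Pecam1, 0.0261 to 0.564 for Cdh5 and 0.0706 to 0.517 for Cd34. Leaving out each pup in turn gave log2 fold changes of -0.73 to -0.36 for Pecam1, 0.61 to 1.18 for Cdh5 and -0.58 to -0.27 for Cd34, with 0 calls by edgeR at an adjusted p under 0.05. Cdh5 had no value where the limit had to be exceeded in all 10 lanes.

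The Cdh5 to Pecam1 ratio kept its call without each single pup (1.15 to 1.65), with exact permutation adjusted p from 0.0119 to 0.0476. The upper end lies just under the threshold. Without control 52 and control 69 it was 1.49 (exact permutation p = 0.0357, adjusted p = 0.107), where 0.0179 is the smallest p the 56 assignments allow. The Cdh5 to Cd34 ratio gave 0.95 to 1.78 with each pup left out and 1.24 without both shallow control lanes, and 0.87 ± 0.66 (SE) with depth. The Cd34 to Pecam1 ratio, uncalled throughout, ran from -0.19 to 0.20 with each pup left out, was 0.25 without both shallow control lanes and 0.32 ± 0.36 (SE) with depth, the sign turning without BDS 11 (-0.13), BDS 38 (-0.01) and control 1 (-0.19). Genes at an adjusted edgeR p under 0.05 numbered 0, but 48 without control 40, 19 without BDS 11, 15 without Polr1b, 14 with positive controls alone, 12 without Gapdh and 10 of 197 where all 10 lanes had to exceed the limit. Genes at an unadjusted edgeR p under 0.05 numbered 80, but 128 with positive controls alone, 139 of 545 with no filter (53 higher, 86 lower), 36 with depth as a covariate, and 45 without BDS 17. The 80 split into 55 higher and 25 lower. By contrast TMM gave 36 and 39, and median-of-ratios factors 33 and 40, while positive controls alone gave 128 and 0. Leaving out Polr1b gave 76 and 12, Gapdh 64 and 17, Oaz1 43 and 33, and Sdha 25 and 49. The cause of these changes was not tested. No paired analysis was possible because the groups share no pup number. Depth limits Cdh5 most: 7 and 27 raw counts in the shallowest lanes.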
